A study of Mus musculus with 5 samples.

Results

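The zinc finger genes described here are the protein-coding genes of mouse whose symbol is Zfp followed by a number. They were taken from a table of raw read counts that listed 55573 genes, 28121 of them with a read in any of 5 libraries. In all, 365 protein-coding genes carried such a symbol once Zfp36 was left out, because Zfp36 encodes an RNA-binding protein with a different kind of finger. The 229 genes with at least 1000 summed raw counts over the 5 libraries made up the group, and the other 136 fell under that minimum. The values that chose the members were therefore the symbol and the summed count.

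RNA-seq was performed on N2A (Neuro-2a) cells, an established line from a mouse neuroblastoma. Cells received 60 pmol of Silencer Negative Control #1 siRNA (siCtl) or of Upf1 siRNA (siUpf1), which targets the helicase required for nonsense-mediated mRNA decay (NMD), and the comparison asked which mRNAs changed when UPF1 was depleted. Replicates 1 and 3 of siCtl and replicates 1 to 3 of siUpf1 gave 2 and 3 libraries, all made from poly(A) RNA with the strand retained. The knockdown was transient and a single Upf1 siRNA was used, and because nothing in the labels ties the libraries to separate cultures, p-values measure only the spread between these libraries, which may be technical.

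Most Zfp genes encode transcription factors built from tandem C2H2 zinc fingers, short modules in which a pair of cysteines and a pair of histidines hold a zinc ion and a helix reads the DNA. Many of them also carry a KRAB domain, which recruits the corepressor KAP1 (encoded by Trim28) and through it the H3K9 methyltransferase SETDB1 and heterochromatin proteins. KRAB zinc finger genes have multiplied in mammals as clusters of related copies, and they are best known for silencing retroelements and for guarding imprinted loci.

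Short sequences in the mRNAs of the most strongly changed members are printed first because results further on refer to them. Each is a 30-base window in the orientation of the mRNA, read from GENCODE M21 transcripts on GRCm38, and the capitals mark a 7-mer. AACCTTG is complementary to bases 2 to 8 of the sense strand of the Upf1 siRNA. It was present in the 3′ untranslated region (3′ UTR) of each of the 4 members with the lowest log2 fold changes, Zfp37, Zfp945, Zfp275 and Zfp512. Among the 10 members named below for the lowest log2 fold changes, only these 4 carried it there.
Zfp37 3′ UTR, chr4:62189643-62189672, minus strand: atatggcattgAACCTTGatattgaattca
Zfp37 3′ UTR, chr4:62190990-62191019, minus strand: taataaaatttAACCTTGatcccaaaccta
Zfp945 3′ UTR, chr17:22850164-22850193, minus strand: aaacttgtgaaAACCTTGagtaatgttcaa
Zfp275 3′ UTR, chrX:73358316-73358345, plus strand: caacttgaatgAACCTTGtgcttttttttt
Zfp512 3′ UTR, chr5:31481395-31481424, plus strand: ctgaccaagctAACCTTGatatggatgaac

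GCAGTAC is a 7-mer that had stood out among mRNAs raised by siUpf1 in earlier work on the same libraries, so its relation to the direction of change is not independent evidence. It occurred 4 times in the coding sequence of Zfp970, the member with the highest log2 fold change, and the first 3 copies are shown. The 4 copies began 252, 168 and 672 nt apart, and 84 nt (28 codons) is the greatest common divisor of these spacings. The 7-mer also occurred once in the coding sequence of Zfp652, a member among the 3 highest log2 fold changes. Zfp651, a close relative of Zfp652 that was chosen for display after its values were seen, carried it in a nearly identical stretch.
Zfp970 coding, chr2:177475051-177475080, plus strand: ctttgcagaaaGCAGTACtctccaaatcca
Zfp970 coding, chr2:177475303-177475332, plus strand: ctttgcacgaaGCAGTACtctccaaaccca
Zfp970 coding, chr2:177475471-177475500, plus strand: ctttgcacataGCAGTACtctccaaataca
Zfp652 coding, chr11:95754010-95754039, plus strand: ttcaacatgaaGCAGTACttcgacgagcac
Zfp651 coding, chr9:121767338-121767367, plus strand: ttcaacatgaaGCAGTACtttgacgagcac

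Upf1 had 5217 and 5243 normalised counts in siCtl and 2403, 2496 and 2449 in siUpf1. It fell by 1.10 on the log2 scale (SE 0.0507, DESeq2 Wald adjusted p = 7.09e-101), so every library matched its label. Counts assigned to genes ranged from 20402205 to 27717594 per library. Of 8 neuronal markers, 5 exceeded 100 normalised counts, among them Tubb3 and Stmn2, whereas Nefl, Nefm and Dcx stayed under 1 CPM (counts scaled to a common library total). The summed neuronal markers ranged from 1121 to 1133 CPM in siCtl and from 1179 to 1244 in siUpf1. Defining markers of other cell types were at 0 in every library for Slc1a3 and Mog of glia, Cx3cr1 and P2ry12 of microglia, and Col3a1 of fibroblasts.

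More Zfp genes rose than fell after UPF1-KD. With DESeq2 fitted to all genes and a Benjamini-Hochberg adjusted p under 0.05 as the call, 88 of the 229 members (38.4%) were higher in siUpf1, 18 (7.86%) were lower and 123 were not called. Over all 15191 genes tested, 22.0% were called higher and 22.9% lower. Among the 9701 protein-coding genes that also had at least 1000 summed counts, the shares were 29.0% and 30.9%. The share of Zfp genes called higher thus stood above both backgrounds and the share called lower stood below both. In a bulk culture, a change in the share of cells that express a gene cannot be told apart from a change of its RNA per cell.

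The shift was small for most members. The median log2 fold change was 0.18 over the 229 genes, with 167 values above 0, against a median of -0.02 over protein-coding genes with the same minimum and -0.0024 over all tested genes. Quartiles of the members were -0.03 and 0.37, and the extremes were -1.15 (Zfp37) and 1.21 (Zfp970). Only 4 members changed by at least 1 on the log2 scale, or 1.75%, where 2.99% of the protein-coding genes with the same minimum did.

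**Figure D1:**
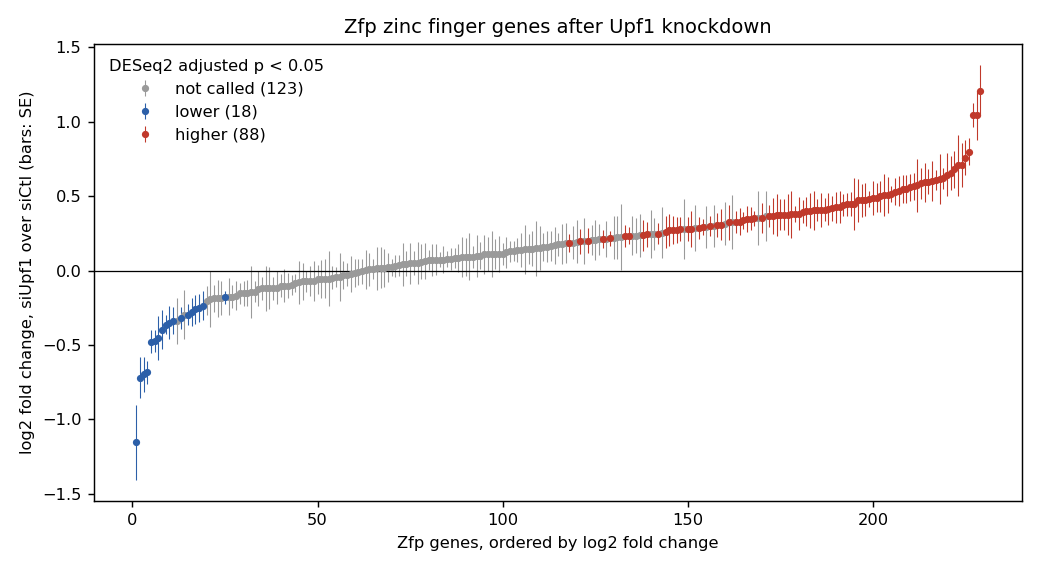
Log2 fold change (siUpf1 over siCtl) of each of the 229 Zfp genes on the y axis, ordered along the x axis, with bars for the SE and colours for the DESeq2 call. The 88 genes called higher fill most of the right side, the 18 called lower sit at the left end, and 123 grey points in between were not called.

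The direction was the same in each siUpf1 library, although all 3 were set against the same siCtl mean and are not separate checks. Relative to the siCtl mean, the median log2 difference of the members was 0.21 in siUpf1 replicate 1, 0.12 in replicate 2 and 0.16 in replicate 3, while the median over all tested genes lay between -0.0078 and -0.0048. In these libraries, 171, 152 and 168 of the 229 members were above their siCtl mean, and in siCtl replicates 1 and 3 it was 98 and 131. Together the members took 0.801% and 0.817% of assigned counts in siCtl and 0.961%, 0.869% and 0.924% in siUpf1. All 3 siUpf1 shares exceeded both siCtl shares, with replicate 2 the closest to siCtl. Refitted without siCtl replicate 1 or 3, the members had a median log2 fold change of 0.13 or 0.18. Without siUpf1 replicate 1, 2 or 3 the median was 0.14, 0.21 or 0.17.

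For 121 members all siUpf1 libraries were above both siCtl libraries, and for 39 they were all below (52.8% and 17.0%). The same separation was found for 37.9% and 40.8% of the protein-coding genes with at least 1000 summed counts. An exact permutation test of 2 against 3 libraries cannot go below 0.1 for a single gene in one direction, so calls rest on the model across genes. Without siCtl replicate 1 the calls were 57 higher and 12 lower, and all 57 and 12 were among the original ones. Calls were fewer over all genes too in that fit, with 18.3% higher and 18.7% lower of the 13286 genes tested. With edgeR, 101 members were called higher and 29 lower (26.2% and 28.4% of the 15368 genes it tested).

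**Figure D2:**
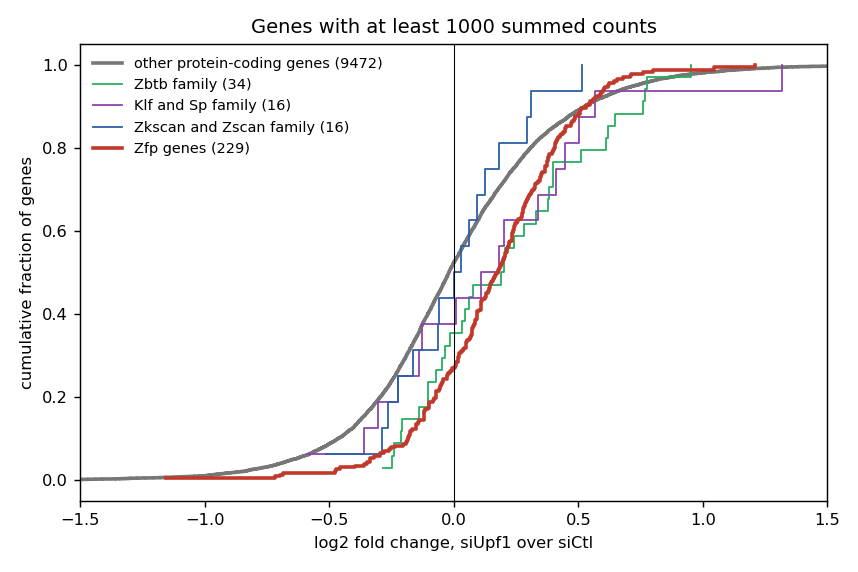
Cumulative fraction of genes (y axis) against log2 fold change of siUpf1 over siCtl (x axis) for genes with at least 1000 summed counts. The curve of the 229 Zfp genes lies to the right of that of the 9472 other protein-coding genes over most of the range, and the 34 Zbtb genes follow a similar course.

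The largest rises were those of Zfp970, Zfp62 and Zfp652. Zfp970 (chromosome 2, 177465000 to 177478000), a KRAB gene with 14 fingers, had 137 and 146 normalised counts in siCtl and 388, 286 and 307 in siUpf1. It rose 2.31-fold (log2 fold change 1.21, SE 0.174, DESeq2 Wald adjusted p = 3.25e-11), with siUpf1 replicate 1 the highest. Only 80.6% of the 100-base windows of its transcript occurred in no other gene, so part of its reads could not be told from those of paralogs.

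Zfp62 (chromosome 11, 49203300 to 49218800) encodes a protein with 25 fingers and no KRAB signature. Its normalised counts were 881 and 1001 in siCtl and 2246, 1854 and 1720.4 in siUpf1, again with the highest value in replicate 1 and no overlap of the groups. The log2 fold change was 1.04 (SE 0.164, DESeq2 Wald adjusted p = 1.64e-09). Zfp652 (chromosome 11, 95712700 to 95835100), a transcriptional repressor that partners with corepressors of the ETO family, had 876 and 776 normalised counts in siCtl and 1613, 1683 and 1805 in siUpf1. Its log2 fold change of 1.04 had an SE of 0.082, less than that of Zfp62, and its replicates lay closer together (DESeq2 Wald adjusted p = 2.25e-35). Zfp651, the relative with the near-identical site, moved the same way, from 596 and 581 to 852, 882 and 868 normalised counts (log2 fold change 0.56, SE 0.0911, DESeq2 Wald adjusted p = 6.51e-09).

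Zfp523, the mouse counterpart of human ZNF76 and a relative of the promoter-binding activator Zfp143, had 686 and 604 normalised counts in siCtl and 1087, 1161 and 1116 in siUpf1 (log2 fold change 0.80, SE 0.0892, DESeq2 Wald adjusted p = 5.75e-18). Zfp143 itself went the other way, from 838 and 809 to 653, 655 and 645 (log2 fold change -0.34, SE 0.0911, DESeq2 Wald adjusted p = 0.000721). In both genes the groups were separated by more than the spread within either. Zfp292 (chromosome 4, 34803100 to 34883000), a very large transcription factor gene whose human counterpart is linked to neurodevelopmental disorders, had 1506 and 1577 normalised counts in siCtl and 3037, 2092 and 2414 in siUpf1. Replicate 1 was far above the other two siUpf1 libraries, and the log2 fold change of 0.71 carried an SE of 0.206 (DESeq2 Wald adjusted p = 0.00192). The call on Zfp292 was lost with either siCtl library left out (DESeq2 Wald adjusted p = 0.0848 without replicate 1 and 0.0548 without replicate 3).

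The other members among the 10 largest rises were Zfp605 (0.76), Zfp329 (0.71), Zfp933 (0.68), Zfp324 (0.66) and Zfp763 (0.64), given as log2 fold changes. Zfp605 illustrates their levels, with 353 and 327 normalised counts in siCtl and 617, 532 and 572 in siUpf1. Each of these genes kept its call in all 12 other fits of the counts.

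**Figure D3:**
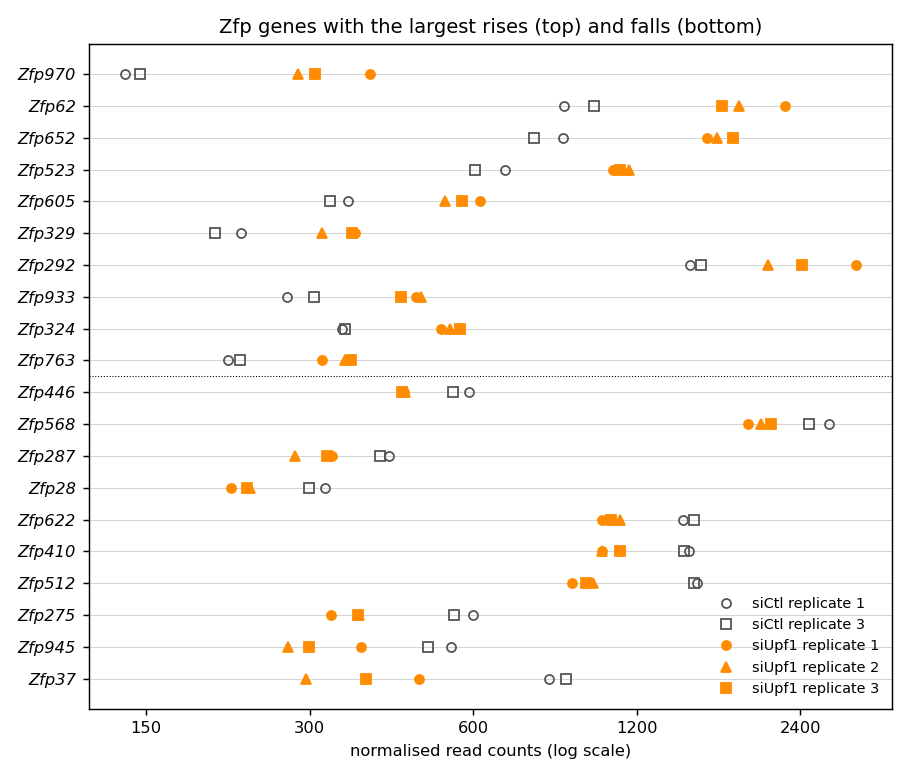
Normalised read counts (x axis, log scale) of the 10 Zfp genes with the largest rises (above the dotted line) and the 10 with the largest falls (below it), with open symbols for siCtl libraries and filled symbols for siUpf1. In all 20 genes the groups do not overlap, as the naming rule required, and siUpf1 replicate 1 stands apart from its group in Zfp970, Zfp62 and Zfp292.

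Among the genes that fell, 4 stood clear of the rest, and these are the genes whose 3′ UTR windows are printed above. Zfp37 (chromosome 4, 62189500 to 62231000), a gene known for its expression in testis and brain, had 826 and 889.7 normalised counts in siCtl and 478, 295 and 382 in siUpf1. All siUpf1 values were below both siCtl values, though they ranged widely among themselves (log2 fold change -1.15, SE 0.253, DESeq2 Wald adjusted p = 2.3e-05). Zfp37 was also the only one of the 4 with 2 copies of AACCTTG in the 3′ UTR.

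Zfp945 (chromosome 17, 22846700 to 22867100), a KRAB gene with 18 fingers, had 546 and 496 normalised counts in siCtl and 373, 274 and 299.5 in siUpf1 (log2 fold change -0.72, SE 0.138, DESeq2 Wald adjusted p = 1.13e-06). Zfp275 (chromosome X, 73342600 to 73359100) is the only member on the X chromosome and had 599.6 and 553 against 328, 370.2 and 368 normalised counts (log2 fold change -0.70, SE 0.118, DESeq2 Wald adjusted p = 2.18e-08). Zfp512 (chromosome 5, 31452400 to 31481800) had 1548 and 1531 against 913, 997 and 967 normalised counts, a difference of -0.68 on the log2 scale (SE 0.0758, DESeq2 Wald adjusted p = 3.02e-18). These 4 genes were called lower in all 12 other fits.

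The next lowest was Zfp410, an activator known for its near-exclusive regulation of Chd4, the NuRD helicase gene. Zfp410 had 1497 and 1469 normalised counts in siCtl and 1037, 1038 and 1118 in siUpf1 (log2 fold change -0.48, SE 0.0751, DESeq2 Wald adjusted p = 1.6e-09). Chd4 had 15729.9 and 15249.7 and 13634, 14168 and 14214 normalised counts, a smaller fall (log2 fold change -0.15, SE 0.0401, DESeq2 Wald adjusted p = 0.000967). In both genes the siUpf1 libraries were all below the siCtl libraries, and whether the pair of changes is connected was not tested. Zfp28 (-0.46), Zfp287 (-0.40) and Zfp446 (-0.35) were the weakest calls of the 10 lowest, and each was lost without siCtl replicate 1 (DESeq2 Wald adjusted p = 0.128, 0.114 and 0.121). Zfp28 was also lost without siCtl replicate 3 (DESeq2 Wald adjusted p = 0.0509), as was Zfp287 (0.0665), which did not pass without siUpf1 replicate 2 either (0.0558).

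Members with a known role were read as 4 groups, which together held 41 genes, 13 called higher (31.7%) and 7 lower (17.1%). The 5 members known to guard imprints or silence retroelements did not move together. Zfp445, which helps Zfp57 to maintain imprints, had 2413 and 2819.9 normalised counts in siCtl and 3306, 2927 and 2989.8 in siUpf1 (log2 fold change 0.23, SE 0.0721, DESeq2 Wald adjusted p = 0.00377), and this call was lost without siCtl replicate 1 (log2 fold change 0.12, DESeq2 Wald adjusted p = 0.304). Zfp568, a repressor of a placental Igf2 transcript, had 2713 and 2493 against 1923, 2032 and 2116 normalised counts and fell (log2 fold change -0.36, SE 0.0656, DESeq2 Wald adjusted p = 1.99e-07). Zfp57, with a log2 fold change of -0.0080 (SE 0.0875), Zfp809, which recognises murine leukaemia proviruses (log2 fold change 0.11, SE 0.122), and Zfp932 (log2 fold change 0.29, SE 0.152) were not called.

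Of 10 members with roles in neural development, 6 were called higher (60%) and 0 lower (median log2 fold change 0.21). Over all 229 members the shares were 38.4% higher and 7.86% lower, with a median of 0.18. With only 10 genes, 0 calls lower does not set the group apart from the other members. Neither edgeR nor DESeq2 at an unadjusted p under 0.05 called any gene of this group lower (0 of 10 in both). Besides Zfp292, Zfp503, a regulator of striatal development, had 345 and 364 normalised counts in siCtl and 494, 506 and 494 in siUpf1 (log2 fold change 0.49, SE 0.116, DESeq2 Wald adjusted p = 0.000105). Zfp609, a cofactor of NIPBL in migrating cortical neurons, had 2936 and 2795 against 3538, 3493 and 3821 (log2 fold change 0.34, SE 0.0582, DESeq2 Wald adjusted p = 4.45e-08). Zfp365, a DISC1-binding protein of neurites, had 4967 and 4673 against 5645, 5526 and 5609 normalised counts (log2 fold change 0.22, SE 0.0479, DESeq2 Wald adjusted p = 3.05e-05). Zfp703, the paralog of Zfp503, had a log2 fold change of 0.22 (SE 0.142) and was not called. Summed neuronal markers were also higher in siUpf1, as given above, with the difference carried by Map2, Gap43 and Elavl3. Gap43 ranged from 129.7 to 131 CPM in siCtl and from 177 to 187 in siUpf1, whereas Stmn2 went from 249 in both siCtl libraries to between 217 and 238 and the Tubb3 ranges overlapped. The part of these markers in the changes was not tested.

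Of the 9 members that act on RNA or translation, 1 was called higher and 3 lower (33.3%, near the 30.9% of the protein-coding background), with a median log2 fold change of -0.0063. Zfp622, a late factor of 60S ribosome maturation, had 1457 and 1528 normalised counts in siCtl and 1038, 1119.5 and 1076 in siUpf1 (log2 fold change -0.47, SE 0.0748, DESeq2 Wald adjusted p = 2.17e-09). Zfp326, which couples splicing to transcription elongation, had 1428 and 1497 against 1232, 1158 and 1125 (log2 fold change -0.32, SE 0.0752, DESeq2 Wald adjusted p = 8.74e-05). Zfp106, an RNA-binding protein needed by motor neurons and muscle, had 7307 and 7207 against 6334, 6371 and 6504 (log2 fold change -0.18, SE 0.0429, DESeq2 Wald adjusted p = 0.000107). The gene that rose was Zfp598, the ubiquitin ligase that senses collided ribosomes, with 3308 and 3204 normalised counts in siCtl and 3960.4, 4138 and 3862 in siUpf1 (log2 fold change 0.29, SE 0.0532, DESeq2 Wald adjusted p = 2.68e-07). Zfp638, a nuclear protein that silences unintegrated retroviral DNA, had 4921, 3558 and 3839 normalised counts in siUpf1 against 3167 and 3611 in siCtl. Replicate 1 of siUpf1 was the highest and replicate 2 lay between the siCtl values. DESeq2 made no call (Wald adjusted p = 0.272), whereas edgeR called the gene higher (quasi-likelihood adjusted p = 0.0373).

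Of 17 members with general roles in transcription or chromatin, 5 were called higher and 3 lower (median log2 fold change 0.07). Zfp644, a partner of the H3K9 methyltransferases G9a and GLP, had 1330.2 and 1430.2 normalised counts in siCtl and 2329, 1817 and 1973 in siUpf1 (log2 fold change 0.57, SE 0.0889, DESeq2 Wald adjusted p = 1.62e-09). Zfp91, also described as a ubiquitin ligase, had 2559 and 2424 against 3501, 3439 and 3494 (log2 fold change 0.48, SE 0.0544, DESeq2 Wald adjusted p = 1.19e-17). Zfp687 rose as well, with a log2 fold change of 0.45 (SE 0.078), whereas Zfp410 and Zfp143 were the largest of the 3 falls.

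The cofactors that KRAB proteins work through were called lower about as often as other genes. Of 19 genes on a list of KAP1 corepressor and associated silencing factors, 3 were called higher (15.8%) and 6 lower (31.6%), with a median log2 fold change of -0.05. The lower share was near the 30.9% of protein-coding genes with at least 1000 summed counts, of which 29.0% were called higher. Trim28, which encodes KAP1, had 14412 and 14836 normalised counts in siCtl and 11368, 11607 and 11080.2 in siUpf1 (log2 fold change -0.37, SE 0.0405, DESeq2 Wald adjusted p = 3.11e-18). Atf7ip, a stabilising partner of SETDB1, had 2483 and 2524 against 1833, 1783 and 1819 (log2 fold change -0.47, SE 0.0596, DESeq2 Wald adjusted p = 6.52e-14). Setdb1 itself had 3318 and 3279 against 3226, 3215 and 3228 normalised counts and was not called (log2 fold change -0.03, SE 0.0512).

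The largest change on this list was that of Dnmt3b, a de novo DNA methyltransferase, with 564 and 548 normalised counts in siCtl and 285, 314 and 299 in siUpf1 (log2 fold change -0.90, SE 0.12, DESeq2 Wald adjusted p = 8.1e-13). Morc3, a chromatin ATPase that silences retroelements, went up from 2138 and 2144 to 2887, 2745 and 2905 (log2 fold change 0.41, SE 0.0578, DESeq2 Wald adjusted p = 1.07e-11). Tasor of the HUSH complex was called higher (log2 fold change 0.26, DESeq2 Wald adjusted p = 0.0375), but this call was lost with any single library other than siUpf1 replicate 2 left out (DESeq2 Wald adjusted p from 0.0591 to 0.341). The HP1 genes Cbx1, Cbx3 and Cbx5 had log2 fold changes of 0.12, 0.16 and 0.09 and were not called.

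Zfp genes with and without a KRAB domain had close medians. A KRAB signature was found in the translated coding sequence of 86 members, of which 27 were called higher and 3 lower (median log2 fold change 0.19). Of the 143 members without it, 61 were higher and 15 lower (median 0.17). KRAB genes had lower counts, with a median of 405 normalised counts against 908. Calls higher numbered 17 of 76 members in the lowest tertile by mean count and 36 of 77 in the highest tertile. Outside the Zfp symbols, 20 protein-coding genes with a KRAB signature and at least 1000 summed counts had 6 calls higher, 2 lower and a median of 0.14.

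Fingers were counted as matches to the classical spacing, with 2 residues between the cysteines, 12 between the pairs and 3 to 5 between the histidines, which misses fingers of other spacing such as some of Zfp143 and Zfp410. The number of matches ranged from 0 to 33 with a median of 10. The 39 members with 1 to 4 matches had the lowest median of the finger classes, with 10 called higher, 8 lower and a median log2 fold change of 0.03. Members with 5 to 9 matches (57 genes, 23 higher and 2 lower), 10 to 14 (76 genes, 35 and 7) and 15 or more (47 genes, 16 and 1) had medians of 0.20, 0.20 and 0.19. Across the 229 members, Spearman's rho of the log2 fold change with the number of matches was 0.13, and with the number of exons -0.26, both as descriptions over genes measured in the same libraries.

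The median log2 fold change was highest in AT-rich members. Members in the lowest tertile by transcript GC had a median log2 fold change of 0.23 with 32 called higher and 2 lower of 76. The middle tertile had a median of 0.14 (24 and 10 of 76) and the highest tertile one of 0.11 (32 and 6 of 77). When a trend with transcript length and GC was removed from the counts, the median of all members was 0.13, with 85 called higher and 29 lower. Length and GC were removed together, so the part of GC alone was not tested. Spearman's rho of the log2 fold change with GC was -0.17 over members and 0.03 over protein-coding genes with the same minimum. With transcript length it was 0.13 and 0.18.

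Annotated NMD isoforms did not go with more rises of the gene-level count, which does not separate such an isoform from the other transcripts of its gene. GENCODE M21 lists a transcript of the NMD class for 52 members, of which 17 were called higher and 7 lower (median log2 fold change 0.11). Of the 177 members with none, 71 were higher and 11 lower (median 0.19). Among protein-coding genes with at least 1000 summed counts, the medians were -0.03 with such a transcript and -0.0042 without. An upstream ATG in the 5′ UTR, present in 141 members, went with a median of 0.19 against 0.13 in the 88 members without. By 3′ UTR length, the highest tertile had 35 of 77 members called higher and 6 lower (median 0.20). The lowest tertile had 25 of 76 higher and 6 lower (median 0.13). A part of NMD in these differences was not tested.

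The Zfp genes lie on all autosomes and on X, with 59 members on chromosome 7 and 26 on chromosome 17. On chromosome 7, 21 were called higher and 5 lower, and on chromosome 17, 11 and 1. Chromosome 8 had 11 of 18 members called higher and 0 lower by DESeq2, although 2 were lower by edgeR and at an unadjusted p under 0.05. Chromosome 6 had 6 of 16 called higher and 0 lower, with 0 lower in those readings too. Its 37.5% called higher was near the 38.4% of all members, of which 7.86% were called lower. With so few genes, 0 calls lower does not set a chromosome apart. At the other end, the single X-linked member fell.

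Neighbouring genes were grouped when their starts lay within 200 kb of the next Zfp gene, and 71 members fell into 12 clusters with at least 4 members each. The largest, on chromosome 7 from 29768552 to 30169750, held 12 members, with 5 called higher and 1 lower, the latter being Zfp568. A cluster on chromosome 17 from 21450374 to 22456689 held 8 members, with 3 higher and 0 lower by DESeq2 (0 by edgeR and 0 at an unadjusted p under 0.05) and a median log2 fold change of 0.28. Its share called higher, 37.5%, was near the 38.4% of all members. All 12 cluster medians were above 0, from 0.05 to 0.30, and only 2 clusters held a gene called lower. Zfp446 was the other such gene, and in its cluster of 4 on chromosome 7 it stood beside Zfp329 and Zfp324, which are among the 10 largest rises. Neighbours thus did not always share a direction.

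**Figure D4:**
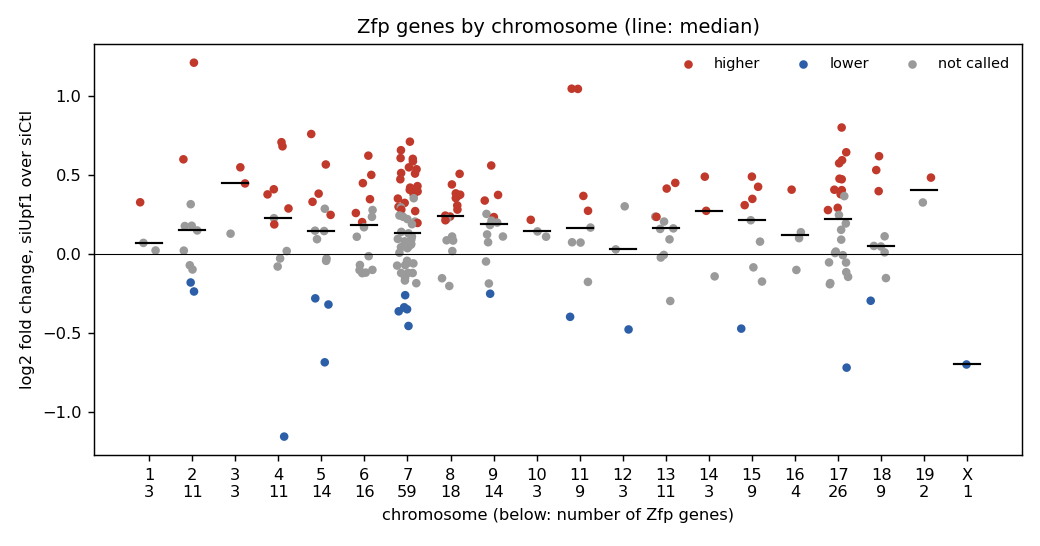
Log2 fold change of siUpf1 over siCtl (y axis) for the 229 Zfp genes by chromosome (x axis, with the number of genes under each), coloured by DESeq2 call, with a line at each median. The medians are above 0 on every autosome, and the lowest points are Zfp37 on chromosome 4 and Zfp945 on chromosome 17.

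The 7-mers introduced above were counted on the mRNA strand of 1 representative transcript per gene. AACCTTG was present in the 3′ UTR of 37 members (16.2%) and of 10.3% of the 9695 protein-coding genes with at least 1000 summed counts and a coding sequence. Of the 37 members, 10 were called higher and 6 lower, with a median log2 fold change of 0.13. The 6 were Zfp37, Zfp945, Zfp275, Zfp512, Zfp326 and Zfp106. The 192 members without it had 78 called higher and 12 lower (median 0.18). Among other protein-coding genes, the 961 with AACCTTG in the 3′ UTR had 228 higher and 415 lower (median -0.12), and the 8511 without it 2496 and 2566 (median -0.01). Zfp933 and Zfp324, each with 1 copy in the 3′ UTR, were among the 10 largest rises. GATAATT, complementary to bases 2 to 8 of the antisense strand of the siRNA, was in the 3′ UTR of 28 members (12.2%, against 8.13% of the protein-coding genes), with 8 higher, 1 lower and a median of 0.15. The 201 members without it had 80 higher and 17 lower (median 0.18). Among other protein-coding genes the medians were close, at -0.016 with it and -0.020 without.

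GCAGTAC was in the coding sequence of 21 members (9.17%, against 13.1% of protein-coding genes), of which 14 were called higher and 1 lower, with a median log2 fold change of 0.37. The gene called lower was Zfp143. The 208 members without it in the coding sequence had 74 higher and 17 lower (median 0.15). In the 3′ UTR it was present in 10 members (4.37%, against 5.57%), with 5 higher and 0 lower by DESeq2 (0 by edgeR and 0 at an unadjusted p under 0.05). Among the other protein-coding genes, 1250 had it in the coding sequence, with 555 higher, 249 lower and a median of 0.13. Of the 10 members with the largest rises, 5 carried GCAGTAC in the coding sequence, namely Zfp970, Zfp652, Zfp605, Zfp292 and Zfp324.

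Members without any of the 3 7-mers in the coding sequence or 3′ UTR were shifted as well, where sites in the 5′ UTR were not considered. There were 128 of them, with 44 called higher, 11 lower and a median of 0.13, whereas 5806 other protein-coding genes without them had 1481 higher, 1877 lower and a median of -0.04. No test was made of these differences, and the 7-mers were chosen with the calls known.

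**Figure D5:**
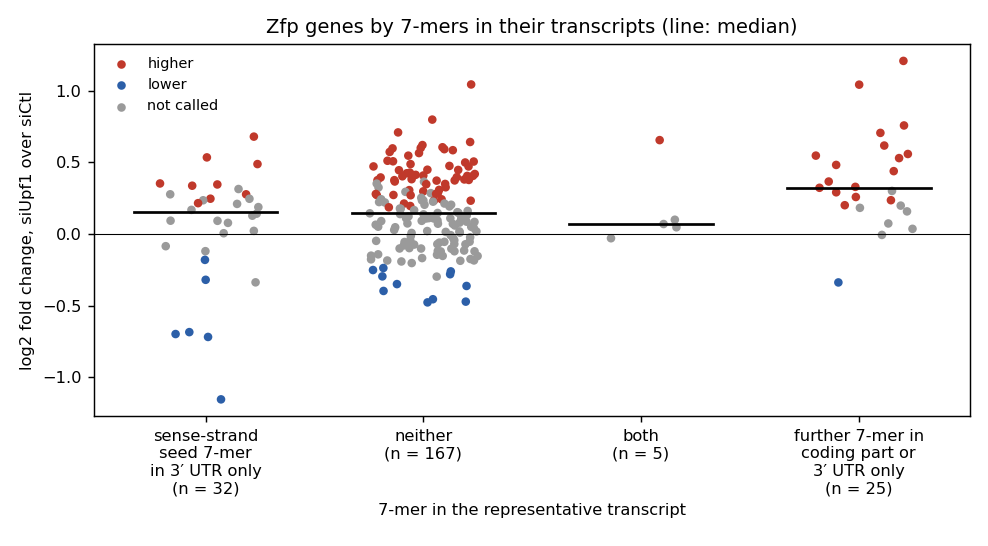
Log2 fold change of siUpf1 over siCtl (y axis) of the 229 Zfp genes, grouped on the x axis by the sense-strand seed 7-mer AACCTTG in the 3′ UTR and the further 7-mer GCAGTAC in the coding part or 3′ UTR, coloured by DESeq2 call, with a line at each median. The 4 lowest points all belong to the 32 genes with the first 7-mer only, and 17 of the 25 genes with the second only were called higher.

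Related zinc finger families gave a mixed picture beside the Zfp genes. Of 34 genes of the Zbtb family, which pair C2H2 fingers with a BTB domain, 17 were called higher and 4 lower (median log2 fold change 0.19). The 16 Klf and Sp genes, activators and repressors that bind GC-rich promoters, had 7 higher and 5 lower (median 0.15). The 16 Zkscan and Zscan genes, which carry a SCAN domain for dimerisation, had 3 higher and 3 lower (median 0.02). These families were set side by side only, and a difference between them and the Zfp genes was not tested. Zfp36, left out of the group, was called lower (log2 fold change -0.80).

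The members with the most reads were Zfp106, Zfp365 and Zfp207. Per kb of transcript, their mean normalised counts were 742, 1241 and 3273, so Zfp207, a spindle assembly factor, was the highest of all 229 on that scale. The length is that of 1 representative transcript, which for Zfp207 has 1562 nt with a 3′ UTR of only 16 nt. Reads were counted over all exons of a gene, so its value per kb may be too high. Zfp207 had 4941 and 4975 normalised counts in siCtl and 5446, 5035 and 5163 in siUpf1 and was not called (log2 fold change 0.07, SE 0.0498).

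At the lower end of the count range, Zfp53 (1030 summed counts, log2 fold change 0.37) and Zfp658 (1042, 0.35) lay just inside the minimum, and Zfp580 (989, -0.30) and Zfp583 (984, -0.34) just outside. Their siCtl means were 173, 177, 221 and 223 normalised counts in that order, so the siUpf1 values decided on which side each lay. Of the 136 Zfp genes under the minimum, 115 had a read and 95 were tested, with 8 called higher, 3 lower and a median log2 fold change of 0.02. With a minimum of 500 or 2000 summed counts in place of 1000, the median was 0.14 or 0.18.

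Reads of closely related copies limit what can be said of single genes. In 180 members every 100-base window of the transcript was unique to the gene, and 13 members had under 90% unique windows, with 5 called higher and 0 lower by DESeq2 (1 by edgeR and 1 at an unadjusted p under 0.05). The values of these 13, which include Zfp970 and Zfp932, are uncertain in so far as reads were split or discarded between copies. Leaving them out gave 83 calls higher and 18 lower of 216 and a median of 0.16.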

How the data were processed

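The deposited file held raw read counts per gene for 5 libraries. To make these counts, the authors trimmed reads with fastp, mapped them to GRCm38.p6 with STAR 2.7.0f and assigned them to reverse-strand exons with featureCounts of Subread 1.6.4, without normalisation or pooling. PCR duplicates could not be recognised in such counts, and counting error is only part of the error. Counts per library are given above.

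All 55573 genes were fitted with DESeq2 1.42.0 (median-of-ratios size factors, Wald test, independent filtering, adjusted p under 0.05), since DESeq2 was the method of the study, and values were read for the Zfp genes. Normalised counts are counts divided by size factors. edgeR 4.0.16 (quasi-likelihood test) and further settings were alternatives. Both tools were tested on simulated data. Gene models, transcripts and 7-mers came from GENCODE M21 on GRCm38, in which 99.7% of identifiers and 100% of members were found. The submitters' annotation release differed.

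Members and lists were chosen with earlier results of these data known. Named genes were Upf1, the 10 highest and the 10 lowest log2 fold changes among called members whose groups did not overlap, up to 5 genes per role list and of the KAP1 list by absolute change, the 3 members with the highest mean count, and 2 genes on each side of the count minimum. Zfp651, Chd4, Setdb1 and the HP1 genes, and members listed by a shared 7-mer, were added after their values were seen. Protein sequences were not used here beyond translation of the coding sequences.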

Additional observations from a re-analysis of the deposited data

How the results depend on the processing

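No member called higher or lower was called in the opposite direction in any of the 12 other fits, and 54 of the 106 calls held in all of them. Of 552 values for 46 named genes, 520 left the call as it was, 24 lost their call, 8 gained one and none changed sign while called. With edgeR, 29 members were called lower. With the length and GC trend removed, 29 members were called lower, 8 Zbtb genes were lower and the members' median was 0.13. Leaving out each library in turn gave 57 to 83 members higher and 12 to 17 lower, 1 to 4 KAP1 list genes higher, 1 to 3 Zkscan and Zscan genes higher and 1 to 2 lower, 9 to 16 Zbtb genes higher and 0 to 3 lower, and 4 to 6 Klf and Sp genes higher and 2 to 5 lower, where a group reduced to 1 siCtl library was assumed to vary like the siUpf1 libraries. The lowest count of members called higher, 57, came without siCtl replicate 1. The labels do not say whether the replicate numbers pair the samples, and number 2 had no siCtl partner. Deviations from the group means correlated at -0.0858 for number 1 and -0.0742 for number 3 over 11898 genes. Both values use the same difference between the 2 siCtl libraries, so they are not separate checks and cannot settle the pairing. With a replicate block, 52 members were higher and 8 lower, 1957 and 1962 of all tested genes, 1 and 3 of the KAP1 list, 1 and 1 of the Zkscan and Zscan genes, 10 and 1 of the Zbtb genes, 4 and 0 of the Klf and Sp genes, and 4 genes of the role lists were lower. Genes with few counts are limited by depth, and for them a missing call is not evidence of an unchanged level.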
